A study of Mus musculus with 8 samples.

Results

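Left ventricles of MRL/MpJ mice were compared with those of C57BL/6 mice on all 8 arrays of the study, 4 of each strain. The arrays were paired by time point, which gave 4 pairs: untreated hearts, and hearts taken at day 3, day 30 and day 60 after the left anterior descending (LAD) branch of the coronary artery had been tied, which infarcts the ventricle. All animals were males of 2 to 4 months. The uninjured hearts were untreated and not sham-operated, each strain and time point had 1 array, and the sources used here do not say whether an array carried RNA of 1 heart or of several. P-values therefore measure only the spread between these arrays. Each value is the signal of an Affymetrix probe set, a group of short probes against 1 transcript region. Signals were compared as log2 values after an offset of 28.6 had been added, so log2 differences of dim probe sets are understated. Of 22626 probe sets, 13280 (58.7%) reached a signal of 121 in at least 2 arrays and were tested.

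MRL/MpJ is an inbred strain known for closing holes punched in its ears, and it has been studied for scar formation in other organs, the heart among them. C57BL/6 is the common reference strain. The strains carry different haplotypes of the major histocompatibility complex (MHC), the highly polymorphic region whose class I genes H2-K1 and H2-D1 encode proteins that show peptides from inside the cell to T cells. Array probes are cut to a reference transcript, so a base that differs between strains can lower a probe's signal with no change in RNA. For any single probe set, the level of RNA and the match of a strain's sequence to the probes cannot be told apart here.

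The promoters of 4 genes that the results turn on are shown to place them in the genome and to show elements that textbooks tie to their regulation. RefSeq gives them for build GRCm38.p6, which is C57BL/6J sequence, so the MRL/MpJ alleles are not shown. Each runs from 250 bases before to 50 bases after the transcription start, 5′ to 3′ on the gene's own strand. H2-K1 lies at chr17:34000298-34000597 on the minus strand, H2-D1 at chr17:35262844-35263143 on the plus strand and Rsad2 at chr12:26456403-26456702 on the minus strand. Myl9 lies at chr2:156775214-156775513 on the plus strand. Capitals mark AANNGAAA, the core letters bound by interferon regulatory factors, in the first 3 sequences, and the CArG box, the binding element of serum response factor, in Myl9. Both strands were searched.
H2-K1: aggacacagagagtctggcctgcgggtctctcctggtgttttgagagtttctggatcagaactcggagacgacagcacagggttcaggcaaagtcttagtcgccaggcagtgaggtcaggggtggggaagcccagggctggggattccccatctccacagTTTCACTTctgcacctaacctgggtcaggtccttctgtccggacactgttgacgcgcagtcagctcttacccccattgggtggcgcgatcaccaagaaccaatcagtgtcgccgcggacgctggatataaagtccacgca
H2-D1: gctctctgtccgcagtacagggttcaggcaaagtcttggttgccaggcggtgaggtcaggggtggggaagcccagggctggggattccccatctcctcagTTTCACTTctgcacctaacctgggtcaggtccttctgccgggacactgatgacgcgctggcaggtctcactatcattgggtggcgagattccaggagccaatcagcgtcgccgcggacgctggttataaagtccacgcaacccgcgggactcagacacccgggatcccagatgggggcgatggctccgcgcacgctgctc
Rsad2: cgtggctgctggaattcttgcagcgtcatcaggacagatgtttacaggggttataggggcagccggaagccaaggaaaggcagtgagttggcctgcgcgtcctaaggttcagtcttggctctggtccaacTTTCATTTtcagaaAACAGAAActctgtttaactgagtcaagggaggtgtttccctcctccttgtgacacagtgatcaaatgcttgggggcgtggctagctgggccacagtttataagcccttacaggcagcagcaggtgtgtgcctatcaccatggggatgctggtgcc
Myl9: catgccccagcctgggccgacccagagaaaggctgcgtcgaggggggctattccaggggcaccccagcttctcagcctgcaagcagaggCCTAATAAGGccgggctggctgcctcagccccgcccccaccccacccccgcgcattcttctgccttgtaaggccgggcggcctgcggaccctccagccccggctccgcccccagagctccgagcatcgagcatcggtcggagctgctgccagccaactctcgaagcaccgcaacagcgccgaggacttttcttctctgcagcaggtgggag
The AANNGAAA match began 90 bases before the start in H2-K1, 150 in H2-D1, and 120 and 106 in Rsad2, and the CArG match 161 before the start in Myl9. Of 27025 genes with a promoter in the table, 26.7% held AANNGAAA and 1.81% a CArG box. Of the 38 genes called below, 32 had a promoter there. AANNGAAA was in 7 of these (21.9%), and a CArG box in 1 of them, Myl9. The longer interferon-stimulated response element, searched as a pair of GAAA runs with 2 bases between them, contains AANNGAAA and was in 3.99% of all genes' promoters and in 1 of the 32, Rsad2. A match is a description of these letters and not a binding site.

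Ventricular muscle markers were measured in both strains, with signals of at least 7748 for 11 of 12, such as Myh6 and Myl2, and of 163 to 308 for the transcription factor Irx4. All 12 were tested, 0 of them had the same direction in all 4 pairs, and their summed signal spanned 204440 to 357739 over the C57BL/6 arrays and 195710 to 268343 over the MRL/MpJ arrays. The C57BL/6 day 30 array stood apart. Its correlation with the other arrays over the tested probe sets was 0.842 to 0.876, against 0.882 to 0.948 among the others, and its brightest probe set reached 75193, where no other array went beyond 38118. Signals of H2-Ea, a class II gene that the C57BL/6 haplotype does not transcribe, were between 5.6 and 105.6 in all arrays of both strains and so gave no check of the labels. A second gene chosen for this check, Nnt, did not separate the strains either. Its brighter probe set differed by 0.48 with mixed signs, and its other set by 0.52 in all 4 pairs, with overlapping signals in both.

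Between the strains, 56 probe sets passed limma's test with time point as a block at an adjusted p under 0.05 (0.422% of those tested). The count was 15 with no signal filter, 18 with 1 probe set for each gene and 0 without moderation of the variance, so none of the 56 passed every alternative. MRL/MpJ was higher in 20 (0.151%) and lower in 36 (0.271%). All 56 had the same direction in all 4 pairs, 48 were at least 2-fold apart in every pair, and in 55 the 4 MRL/MpJ signals lay entirely outside the C57BL/6 signals. The calls were made from these same differences, so these counts describe the calls and are no further evidence for them. Over all tested probe sets, the same direction in all 4 pairs was seen in 2456 (18.5%), at least 2-fold in every pair in 49 (0.369%), and separate strains in 601 (4.53%; 2.04% with MRL/MpJ higher and 2.48% with it lower). The direction was higher in MRL/MpJ for 1225 of the 2456 (9.22% of those tested) and lower for 1231 (9.27%). The 56 comprised 45 probe sets with 1 gene symbol, belonging to 38 genes, 5 with several symbols and 6 with none. Of the 38 genes, 16 were higher in MRL/MpJ, 23 were lower, and 1, H2-D1, was counted in both because its probe sets went opposite ways. The largest difference among those without a single symbol was 2.79 on the log2 scale, in a probe set assigned to several genes.

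**Figure D1:**
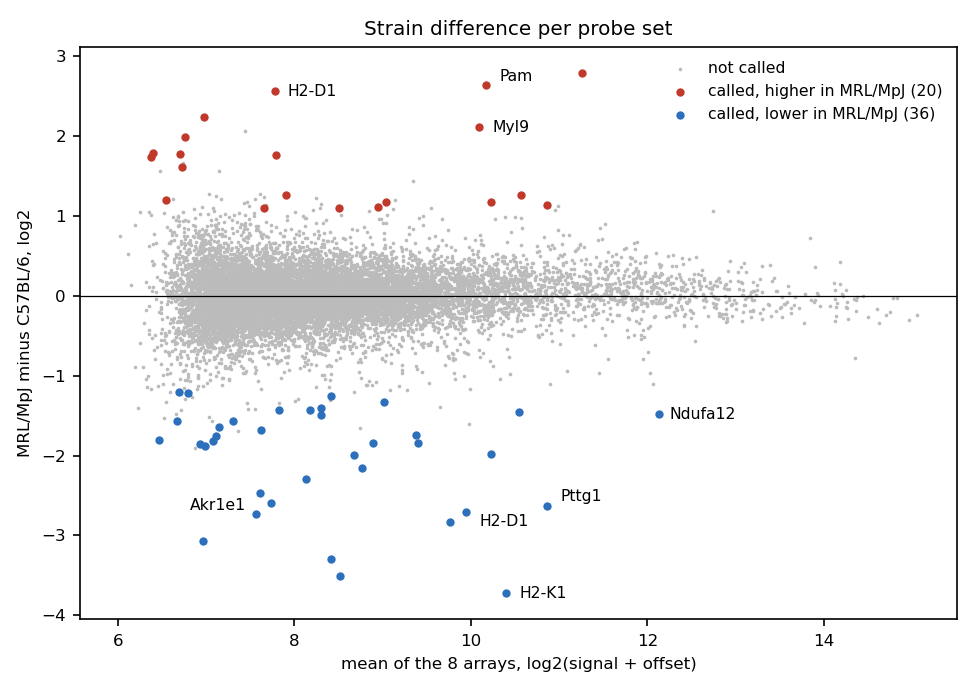
Strain difference in log2 of signal plus offset (vertical axis) against the mean over the 8 arrays (horizontal axis) for 13280 probe sets, with 20 called higher in MRL/MpJ in red and 36 called lower in blue. The largest differences reach -3.72 for an H2-K1 probe set and 2.64 for Pam among single genes, and H2-D1 appears on both sides of 0.

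With 1 pair left out, fewer calls were made: 14 without the untreated pair, 17 without day 3, 44 without day 30 and 16 without day 60. A set of 12 probe sets stayed called whichever pair was left out, namely both of H2-K1, all 4 of H2-D1, both of Pttg1, those of Akr1e1, Rpgrip1 and Myl9, and 1 without a symbol. Every other call below was lost without at least 1 pair. The pairs also differed in their overall spread, since the standard deviation of the log2 differences was 0.47 in untreated hearts, 0.57 at day 3, 0.75 at day 30 and 0.44 at day 60. At least 2-fold differences numbered 274 higher (2.06%) and 301 lower (2.27%) in untreated hearts. At day 3 they made up 3.66% (higher) and 3.54% (lower), and at day 60 1.55% and 1.85%. At day 30 they numbered 990 higher (7.45%) and 1206 lower (9.08%), the pair with the array that stood apart. Across probe sets, which are not independent replicates, the differences of any 2 pairs correlated weakly, from -0.05 between day 3 and day 30 to 0.27 between day 3 and day 60.

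H2-K1, which encodes the heavy chain of the class I molecule K, gave the lowest p of all probe sets. Probe set 1425336_x_at had signals of 4051, 6395, 4807 and 4513 in C57BL/6 at untreated, day 3, day 30 and day 60, in that order throughout. In MRL/MpJ they were 256, 502, 333 and 320. Every MRL/MpJ array was far dimmer than its partner, and the 4 pair differences ran from -3.84 to -3.60. Their mean was -3.72 ± 0.16 (n = 4 pairs, adjusted p = 0.000365, limma). Each ± in this report is limma's moderated SE. It draws on the variance of all tested probe sets and is not the SE of the 4 pairs alone. A second set, 1451931_x_at, gave signals of 1113, 1472, 1078 and 1217 against 95.3, 129, 21.1 and 117, a difference of -3.51 ± 0.26 (adjusted p = 0.00301). Its strains too were far apart at every time point. The other 2 probe sets of H2-K1 differed by -1.11, in all 4 pairs, and by -0.83, in 3 of 4 pairs, and neither passed. The gene's 4 probe sets thus shared a sign while their log2 differences ranged from -3.72 to -0.83.

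H2-D1, the class I heavy chain D, was measured by 9 probe sets, of which 6 passed the signal filter. The test was passed by 3 that were lower in MRL/MpJ. In 1425545_x_at signals were 2047, 2846, 2392 and 2729 in C57BL/6 and 270, 437, 395 and 348 in MRL/MpJ, a difference of -2.70 ± 0.17 (adjusted p = 0.00143). In 1451784_x_at they were 1972, 2923, 1963 and 2434 against 178, 372, 340 and 338, a difference of -2.83 ± 0.19 (adjusted p = 0.002). In 1451683_x_at they were 241, 380, 413 and 330 against 6.3, 8.1, 6.6 and 48.4, a difference of -3.07 ± 0.26 (adjusted p = 0.00501), with 3 of the 4 MRL/MpJ signals under the offset. One more called set, 1450170_x_at, was reversed. Its C57BL/6 signals were 57.3, 59.1, 98.9 and 40, all below the signal filter, and its MRL/MpJ signals were 293, 427, 697 and 729, a difference of 2.56 ± 0.26 (adjusted p = 0.0119). All 4 of these sets separated the strains, in opposite directions for 1 gene. Among the 5 others, 1426324_at differed by -1.91 with 160, 148, 227 and 286 against 80.6, 27.1, 19.6 and 17.4, and did not pass. Probe sets ending in _x_at, which Affymetrix marks as able to bind more than 1 transcript, made up 9 of the 56 calls (16.1%) and 7.35% of all tested. All 6 called sets of H2-K1 and H2-D1 end in _x_at.

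The rest of the class I pathway was examined as a list. Of 26 class I and antigen-processing genes listed, 14 were measured, with 1 probe set for each gene (its highest mean). In these 14, 2 were called lower, H2-K1 and H2-D1. Over all 8208 measured genes 0.195% were called lower, 9.17% were lower in all 4 pairs, 8.53% were higher in all 4, and the median difference was -0.02. In the class I list 5 of 14 (35.7%) were lower in all 4 pairs, 0 were higher in all 4, and the median was -0.23. B2m, the light chain shared by class I molecules, had signals of 3276, 5920, 4720 and 5404 in C57BL/6 and 2242, 2928, 4224 and 4245 in MRL/MpJ. Its strains overlapped, and its difference of -0.51 did not pass. The peptide transporter gene Tap1 differed by -0.45 and its partner Tap2 by 0.27, and neither passed. H2-M3, a non-classical class I gene, differed by -0.57 and did not pass either.

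Class II genes, which present peptides taken up from outside the cell, gave no call among 10 measured of 13 listed. H2-Aa had signals of 1393, 2857, 1750 and 1276 in C57BL/6 and 272, 1077, 272 and 1095 in MRL/MpJ. All MRL/MpJ signals lay below all C57BL/6 signals, but the pair differences were uneven and the mean of -1.60 did not pass (adjusted p = 0.222). H2-Eb1 (-0.95), H2-Ab1 (-0.83) and Cd74 (-0.80), the invariant chain that escorts class II, were lower in all 4 pairs without passing. The list's median was -0.74 in untreated hearts, -0.03 at day 3, -1.25 at day 30 and 0.02 at day 60. Without the day 30 pair the median of -0.46 over the pairs became -0.15. Class II molecules are made chiefly by B cells, macrophages and dendritic cells. Summed signals of 6 measured of 15 listed B cell markers spanned 729 to 6112 over the C57BL/6 arrays and 690 to 1987 over the MRL/MpJ arrays. Those of 20 of 26 macrophage markers spanned 9888 to 15106 and 6608 to 18714. In whole tissue fewer cells of a type and less RNA per cell cannot be told apart, and the part of these cells in the class II values was not tested.

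Interferon-stimulated genes are switched on by interferon signalling and encode antiviral proteins. Of 37 listed, 24 were measured, and 13 (54.2%) were lower in MRL/MpJ in all 4 pairs, beside 9.17% of all genes. The median was -0.48, and it was negative in each pair: -0.42 in untreated hearts, -0.15 at day 3, -0.83 at day 30 and -0.39 at day 60. Without the day 30 pair it was -0.37. Of 7 measured of 13 listed neutrophil markers 3 (42.9%) were lower in all 4 pairs, with a median of -0.33 and summed signals of 980 to 1244 over the C57BL/6 arrays and 668 to 1052 over the MRL/MpJ arrays. Of 6 measured B cell markers 2 (33.3%) were lower in all 4 pairs, with a median of -0.35. No marker of either cell type was called, and the part of these cells in the interferon-stimulated values was not tested. A single member passed the test, Rsad2, which encodes the antiviral enzyme viperin. Its signals were 539, 515, 454 and 493 in C57BL/6 and 252, 182, 208 and 145 in MRL/MpJ. The strains were apart by at least 1.02 in every pair, with a mean of -1.25 ± 0.18 (adjusted p = 0.0476), and the call was lost without any 1 pair (adjusted p up to 0.293). Its other 2 probe sets differed by -0.97 and -0.60.

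Oasl2, which encodes an oligoadenylate synthetase-like protein, had signals of 125, 153, 158 and 128 in C57BL/6 and 38.4, 65.4, 57.4 and 68.5 in MRL/MpJ. These did not overlap either, but the difference of -0.99 did not pass (adjusted p = 0.0889). Bst2, which encodes tetherin, a membrane protein that holds budding viruses, differed by -1.04 (adjusted p = 0.361) and was dim, with C57BL/6 arrays at 37.6 to 170 and MRL/MpJ arrays at 19.5 to 35.6. Oas1a differed by -0.97 and Oas2 by -0.90, and Igtp, an interferon-induced GTPase, by -0.87, all without passing. In the promoters of the 21 measured genes of this list that RefSeq gave, AANNGAAA was found in 16 (76.2%) and the paired GAAA element in 13 (61.9%).

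Outside the MHC the largest fall was that of Pttg1. The gene encodes securin, the protein that holds back separase until chromosomes separate. In 1438390_s_at signals were 5031, 6152, 3156 and 4673 in C57BL/6 and 845, 863, 543 and 678 in MRL/MpJ, a difference of -2.63 ± 0.17 (adjusted p = 0.00143). In 1424105_a_at they were 1179, 1242, 747 and 1059 against 95, 55.3, 123 and 60.6 (-3.29 ± 0.27, adjusted p = 0.00428). Both sets separated the strains widely, in untreated hearts as well as after ligation. The remaining set, below the signal filter, differed by -0.86, also in all 4 pairs. Of the 14 measured mitosis and replication genes Pttg1 was the 1 called, and the list's median was -0.12 (0.10 without day 30). Aurka, a mitotic kinase, differed by -0.42 without passing.

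Akr1e1, an aldo-keto reductase, fell by a similar amount in each pair. Its signals were 544, 540, 435 and 343 in C57BL/6 and 45.2, 61.4, 41.7 and 33.4 in MRL/MpJ, and the 4 pair differences lay between -2.96 and -2.58 (mean -2.73 ± 0.17, adjusted p = 0.00143). Rpgrip1, known as a protein of the photoreceptor cilium, had signals of 466, 507, 418 and 607 against 69.1, 102, 28.1 and 48.5 (-2.60 ± 0.22, adjusted p = 0.00525). Both genes stayed under 121 in every MRL/MpJ array. The other 3 probe sets of Rpgrip1 did not pass the signal filter and differed by -0.35 to 0.04, and Akr1e1 had no other.

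Parp3, an ADP-ribosyltransferase that takes part in the repair of DNA breaks, had signals of 512, 406, 417 and 403 in C57BL/6 and 97.4, 21.8, 33.7 and 93.9 in MRL/MpJ. The difference was -2.47 ± 0.25 (adjusted p = 0.0119, and up to 0.0662 with 1 pair left out). Its second probe set had the same direction in all 4 pairs, at -0.50, without passing. Parp1 (-0.05) and Parp2 (0.22), the family's better-known DNA damage sensors, did not pass. Stk25, a sterile 20-like kinase, had signals of 722, 715, 432 and 549 against 62.6, 108, 149 and 89.4 (-2.29 ± 0.27, adjusted p = 0.0191, and up to 0.121 with 1 pair left out). Its difference was narrowest at day 30, at -1.38, and widest in untreated hearts, at -3.04.

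Klf9, a zinc finger transcription factor that glucocorticoids induce, had 3 of its 7 probe sets called, all lower in MRL/MpJ. Their differences were -1.88, -1.85 and -1.42, with adjusted p of 0.0164, 0.0492 and 0.0281. The signals of 1436763_a_at were 261, 250, 175 and 184 in C57BL/6 and 41.5, 26.5, 28.7 and 57.5 in MRL/MpJ. Those of 1456341_a_at were 954, 909, 638 and 1041 against 311, 98.5, 172 and 427, with the widest gap at day 3. The set with the highest mean gave 1520, 1789, 1294 and 1390 against 784, 461, 602 and 814, a difference of -1.16 in all 4 pairs that did not pass. Klf9 was the non-MHC gene with the most probe sets called in 1 direction.

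Sarcospan, encoded by Sspn, is a small membrane protein of the dystrophin complex that links the muscle cytoskeleton to the matrix. Its signals were 1595, 1032, 1042 and 1167 in C57BL/6 and 367, 420, 276 and 295 in MRL/MpJ (-1.75 ± 0.19, adjusted p = 0.0164). The second probe set was also lower in all 4 pairs, by -0.76. Of 13 measured genes of the complex Sspn was the 1 called: Dag1, the dystroglycan gene, differed by -0.49 and Dmd, the dystrophin gene, by 0.28. Fblim1, whose product migfilin binds filamin at cell contacts, differed by -1.33 (adjusted p = 0.049), and its other probe set by -0.77 in all 4 pairs. Cyfip2, part of the WAVE complex that drives actin branching, differed by -1.41 (adjusted p = 0.0371) on its single probe set.

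Ndufa12, an accessory subunit of respiratory complex I, had signals of 7853, 7383, 6559 and 8236 in C57BL/6 and 2891, 2573, 2880 and 2351 in MRL/MpJ (-1.48 ± 0.18, adjusted p = 0.0219). A second set gave -1.10 in all 4 pairs, and another, at 2308 to 3331 against 2331 to 3883, gave 0.12 with overlapping strains. Isca1, which acts in iron-sulphur cluster assembly, had 2913, 2734, 2115 and 2162 against 985, 777, 1009 and 758 (-1.46 ± 0.19, adjusted p = 0.0274), while its other set differed by -0.10. Uqcr10, a subunit of the cytochrome bc1 complex, differed by -1.64 on its called set and by -0.03 on the set of highest mean. Gadd45gip1, a mitochondrial ribosome protein that binds GADD45 proteins, differed by -1.43 on its called set and by 0.62 on a set below the filter. Prdx2, a mainly cytosolic peroxiredoxin that removes hydrogen peroxide, differed by -1.68 on its called set and by 0.32 on its other set. In the complex I list 23 of 33 measured genes were below 0, beside 4378 of all 8208 genes. Lower in all 4 pairs were 4 (12.1%), beside 9.17% of all genes, and the median was -0.08 (0.07 without day 3). Ndufa13 came closest, at -0.97, with 6473, 5854, 4638 and 6580 against 4077, 2345, 3065 and 2655, and did not pass (adjusted p = 0.166).

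The remaining called falls were smaller or dim. Rps4l, a gene of the ribosomal protein S4 family, had 118, 190, 78.3 and 192 in C57BL/6 and 20.6, 23.4, 18.7 and 13.3 in MRL/MpJ (-1.81, adjusted p = 0.0281). Rps4x, the main S4 gene, differed by 0.10 without passing, and of 22 measured small-subunit genes Rps4l was the 1 called. Ceacam1, a cell adhesion molecule of the immunoglobulin superfamily, differed by -1.75 on 1 of 8 probe sets. Its set of highest mean, the 1 other set that passed the filter, differed by -0.05 with mixed signs. Psmd6, a proteasome regulatory subunit, differed by -1.82 on 1 of 2. Cd99l2 differed by -1.22 on 1 of 4, and by 0.11 with mixed signs on its set of highest mean. Of the 3 other Cd99l2 sets 2 shared the sign of the call. Rab6b, a Golgi GTPase, differed by -1.20 and A530016L24Rik, a gene without an established name, by -1.56.

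Pam was the single gene with the largest rise. It encodes peptidylglycine alpha-amidating monooxygenase, the enzyme that amidates peptide hormones and is abundant in atrial granules. C57BL/6 signals were nearly constant at 400, 454, 440 and 436. MRL/MpJ signals were 1428, 2485, 3748 and 4923, higher in every heart taken after ligation than in the untreated one. The pair differences were 1.77, 2.38, 3.01 and 3.42, with a mean of 2.64 ± 0.28 (adjusted p = 0.0135, and up to 0.0538 with 1 pair left out). The departure of the ligated pairs from the untreated pair, 1.17 ± 0.54, had an unadjusted p of 0.0698 in limma and did not pass. Summed signals of 11 measured of 12 atrial markers were 6250, 11688, 55246 and 19896 in C57BL/6 and 8781, 30727, 41307 and 40028 in MRL/MpJ. The highest sum was that of the C57BL/6 day 30 array, which stood apart. The part of atrial markers in the Pam difference was not tested.

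Myl9 encodes a myosin light chain that regulates contraction in smooth muscle and other non-striated cells. Its signals were 396, 458, 514 and 652 in C57BL/6 and 1375, 1995, 2482 and 3703 in MRL/MpJ. The strains did not overlap, and the pair differences were 1.72, 2.06, 2.21 and 2.46 (mean 2.11 ± 0.19, adjusted p = 0.00594). Of 19 measured smooth muscle genes Myl9 was the 1 called, 10 were above 0 and the median was 0.03. Acta2, smooth muscle actin, differed by -0.06 and Myh11, the smooth muscle myosin heavy chain, by -0.04. Tagln (0.50) and Cnn1 (0.44), which encode actin-binding proteins of the same cells, did not pass.

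Hebp1, which encodes a heme-binding protein, was dim in C57BL/6, at 14.6, 23.4, 25.2 and 63.2, and stood at 208, 288, 320 and 183 in MRL/MpJ (2.24 ± 0.27, adjusted p = 0.0219). Hsd17b11, a hydroxysteroid dehydrogenase of lipid droplets, had 55.1, 12, 16.2 and 27.9 against 169, 235, 128 and 237 (2.00 ± 0.25, adjusted p = 0.0266). In both genes C57BL/6 signals lay below the filter in every array. The other probe set of Hsd17b11, at 728 to 894 against 931 to 1150, was also higher in all 4 pairs, but by 0.34. Nfia, a nuclear factor I transcription factor, had 137, 134, 119 and 115 against 386, 358, 290 and 337 (1.26 ± 0.16, adjusted p = 0.0281), with pair differences from 1.11 to 1.35. Its relatives Nfib (-0.02), Nfic (-0.32) and Nfix (0.18) did not pass.

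Slc12a2, the sodium-potassium-chloride cotransporter, had 314, 283, 297 and 342 in C57BL/6 and 820, 591, 655 and 743 in MRL/MpJ (1.11 ± 0.17, adjusted p = 0.0492). Both of its other probe sets were higher in all 4 pairs too, by 1.09 and 0.82. Thrsp, a regulator of fat synthesis, had 465, 249, 220 and 413 against 1142, 496, 544 and 1076 (1.17 ± 0.17, adjusted p = 0.0463), with 0.87 in its other set in all 4 pairs. Of 12 listed fat cell markers 6 were measured, 5 of them above 0, with a median of 0.32. In all 4 pairs 2 (33.3%) were higher, Adipoq (1.0) and Cidea (0.43), beside 8.53% of all genes. Lower in all 4 pairs was 1 (16.7%), beside 9.17% of all genes, and none of the 6 markers was called. Their summed signal spanned 25479 to 28581 over the C57BL/6 arrays and 24462 to 29794 over the MRL/MpJ arrays, and the part of fat cells in the Thrsp difference was not tested. Bdh1, the enzyme that interconverts ketone bodies, rose by 1.10 on its called set (adjusted p = 0.0492) and differed by 0.42 on its other set, in all 4 pairs. It was the 1 called set whose strains overlapped, because both day 3 hearts were low, at 31.1 and 104. Sparcl1, a matricellular relative of SPARC, had 810, 624, 584 and 1194 against 1632, 1644, 1574 and 2340 (1.17 ± 0.18, adjusted p = 0.0492).

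Tirap, an adaptor of Toll-like receptors, had the most even pair differences of all called sets. Its signals were 21.3, 59.1, 33.4 and 25.7 against 80.1, 171, 125 and 93.4 (1.20 ± 0.16, adjusted p = 0.0341), and its other set differed by 0.07. The mean signals of the called set, 34.9 in C57BL/6 and 117 in MRL/MpJ, both lay under 121, so its log2 differences are understated. Gnb1, a G protein beta subunit, differed by 1.10 on its called set (adjusted p = 0.049), and by 0.35 with mixed signs on the set of highest mean. Ptp4a2, a protein tyrosine phosphatase, had 870, 1035, 773 and 1191 against 1862, 2579, 2389 and 2572 on its called set (1.26 ± 0.18, adjusted p = 0.0393), while its other 3 sets differed by -0.22 to 0.08. For these 3 genes the difference rests on 1 probe set. Ywhaz, the gene of a 14-3-3 protein, had 80.2, 73.8, 97.6 and 118 against 329, 448, 308 and 455 on its called set (1.77 ± 0.19, adjusted p = 0.0152). Trmt2a, a transfer RNA methyltransferase, had 28.2, 31.5, 19.2 and 53.2 against 154, 166, 79 and 282 (1.62 ± 0.19, adjusted p = 0.0191), with its other 3 sets between -0.31 and 0.18. The called set of 1810058I24Rik rose by 1.14, at 1227, 1197, 1363 and 1118 against 3409, 2562, 2800 and 2276.

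**Figure D2:**
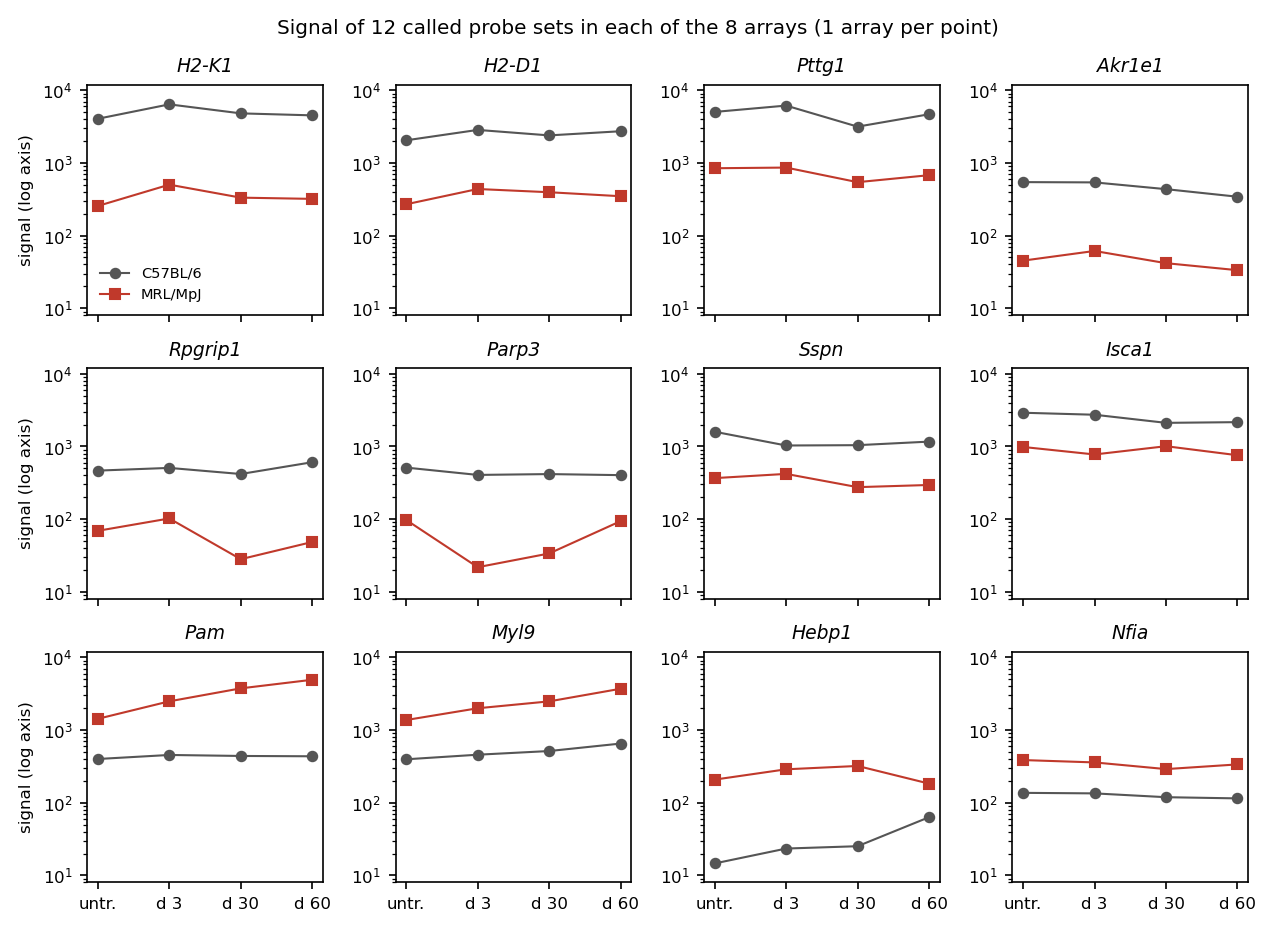
Signal (log axis) of 12 called probe sets in each array, by time point, with C57BL/6 as grey circles and MRL/MpJ as red squares, 1 array for each point and no error bars. MRL/MpJ lies below C57BL/6 at all time points for H2-K1, H2-D1 (1425545_x_at), Pttg1, Akr1e1, Rpgrip1, Parp3, Sspn and Isca1, and above it for Pam, Myl9, Hebp1 and Nfia, where Pam runs from 1428 to 4923 in MRL/MpJ while C57BL/6 stays between 400 and 454.

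Probe sets of 1 gene share its RNA and are repeat measurements, not replicates, and their agreement varied widely. Of the 38 called genes, 11 had 1 probe set, among them Akr1e1, Pam, Myl9, Hebp1, Stk25 and Sparcl1, so nothing on the array could be set beside the call. In none of the other 27 did every probe set pass in 1 direction. At least 2 passed in the same direction in 4 genes: H2-K1, H2-D1, Pttg1 and Klf9. Those 27 genes had 61 further probe sets that were not called, of which 41 passed the signal filter. The sign was shared by 39 of the 61, and 52 had less than 50% of the called log2 difference. The same direction in all 4 pairs was seen in 18, and the opposite direction in all 4 pairs in 6. Of all tested probe sets, which leave out those below the filter, 9.22% were higher and 9.27% lower in all 4 pairs.

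Of 23 genes with another probe set that passed the filter, 15 had at least 1 such set with the call's direction in all 4 pairs. Counted by probe set, this was 16 of the 41 (39%). Over all 2730 genes with more than 1 tested set, where the set of highest mean had 1 direction in all 4 pairs, 23.5% of the other sets had it too and 4.67% had the reverse. The first share is set against the call and the second against the set of highest mean, and neither is a test. In 10 of the 27 no further set had the call's direction in all 4 pairs, among them Prdx2, Psmd6, Isca1, Tirap, Ptp4a2, Trmt2a, Rpgrip1 and Ceacam1.

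In 14 of the 27 genes the probe set with the highest mean signal was not the called one. In 9 of these 14 it had the same sign and in 5 the opposite. For Prdx2 the called set had 324, 280, 337 and 358 in C57BL/6 and 74.8, 119, 43.6 and 102 in MRL/MpJ (-1.68), whereas the set of highest mean had 2880, 2732, 2682 and 2702 against 3935, 3282, 2988 and 3632. That second set was higher in MRL/MpJ in all 4 pairs, by 0.32. For Uqcr10 the called set gave -1.64 and the set of highest mean -0.03, at 3959 to 4261 against 3508 to 4597. For Ywhaz the called set was at 73.8 to 118 against 308 to 455 (1.77), and the set of highest mean went the other way in all 4 pairs, by -0.68. Of its 6 other sets 2 were opposite in all 4 pairs and 1 shared the direction of the call. Psmd6 gave -1.82 and 0.21, and Ptp4a2 1.26 and -0.22. For these genes a rise or fall of the gene's RNA as a whole is not what the probe sets jointly show.

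**Figure D3:**
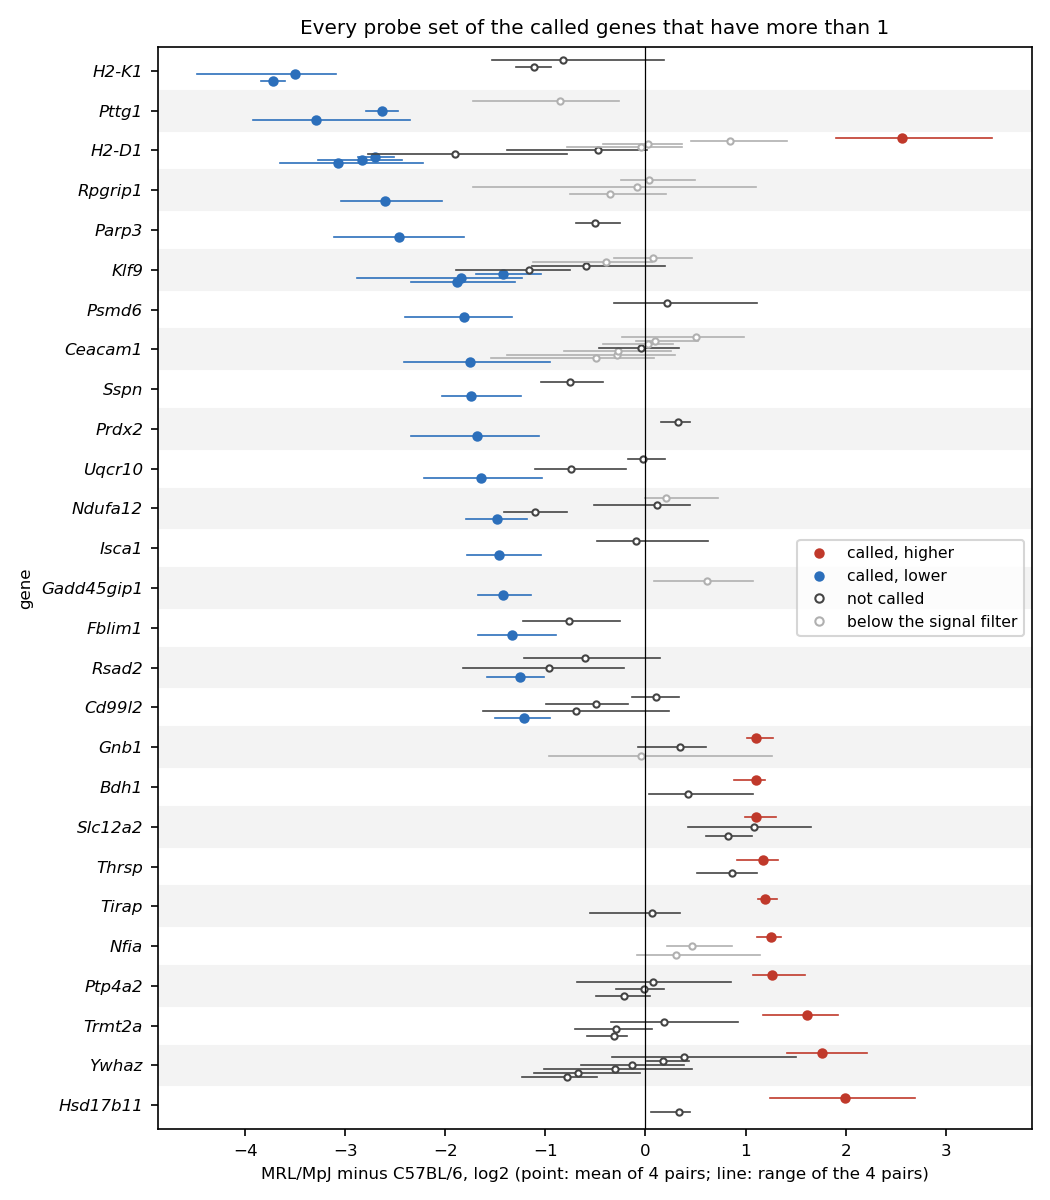
Strain difference in log2 (horizontal axis) of every probe set of the 27 called genes that have more than 1, as the mean of 4 pairs (point) with the range of the pairs (line). Filled points passed the test, open dark points did not, and open light points were below the signal filter, with H2-D1 showing called sets from -3.07 to 2.56 and Slc12a2 showing all 3 sets above 0.

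Signal level sets a limit on the sizes given here. In 28 of the 56 called sets the mean of the dimmer strain lay under 121, and in 6 it lay under the offset of 28.6. In 1, that of Tirap, the mean of the brighter strain lay under 121 as well.

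Matrix genes leaned higher in MRL/MpJ, but mainly through the day 3 pair. Of 31 measured collagen and matrix genes 24 were above 0, beside 3830 of all 8208 genes. The median was 0.27, and 6 (19.4%) were higher in all 4 pairs, beside 8.53% of all genes. The list's pair medians were -0.14 in untreated hearts, 0.96 at day 3, -0.13 at day 30 and 0.31 at day 60, and without the day 3 pair the median was 0.04. Lum, which encodes the collagen-binding proteoglycan lumican, had 787, 1910, 1134 and 1822 in C57BL/6 and 1298, 5193, 2896 and 3319 in MRL/MpJ. MRL/MpJ was higher in each pair although the strains overlapped, and the difference of 1.08 did not pass (adjusted p = 0.0975). Col11a1, a minor fibrillar collagen, differed by 1.11 (adjusted p = 0.103). Eln, the elastin gene, was the 1 member lower in all 4 pairs, at -0.63.

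Matricellular genes, whose products are secreted into healing tissue without forming fibres, had a median of 0.36 over 18 measured genes. Above 0 were 16 of the 18, beside 3830 of all 8208 genes. The pair medians were -0.01, 1.25, 0.24 and 0.37, and without the day 3 pair the median was 0.10. Sparcl1 was the member called. Summed signals of the 16 fibroblast markers were 17482, 38596, 40693 and 39012 in C57BL/6 and 18605, 70023, 43160 and 43255 in MRL/MpJ, so that the day 3 pair was the 1 in which they differed most. The part of fibroblast number in these values was not tested.

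The fetal and stress programme is a group of genes of the embryonic ventricle that injured adult muscle takes up again. Of its 17 measured genes 15 were above 0, beside 3830 of all 8208 genes, and the list's median was 0.53. The medians were 0.13 in untreated hearts, 1.03 at day 3, 0.28 at day 30 and 0.43 at day 60, and 0.26 over the pairs without day 3. None was called. In 5 (29.4%, beside 8.53% of all genes) MRL/MpJ was higher in all 4 pairs, namely Fhl1, Acta1, Fstl1, Enah and Nes. Fhl1, a LIM-domain protein of the sarcomere, had 1314, 1243, 1320 and 1530 against 1765, 3348, 4683 and 2827, with no overlap, and a difference of 1.13 that did not pass (adjusted p = 0.195). Acta1, skeletal actin, had 7377, 2977, 4809 and 4698 against 8451, 9295, 13897 and 8846 (1.07, adjusted p = 0.259). Fstl1, a secreted glycoprotein, had 388, 1032, 988 and 1786 against 426, 3032, 2932 and 3070 (0.99, adjusted p = 0.315).

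**Figure D4:**
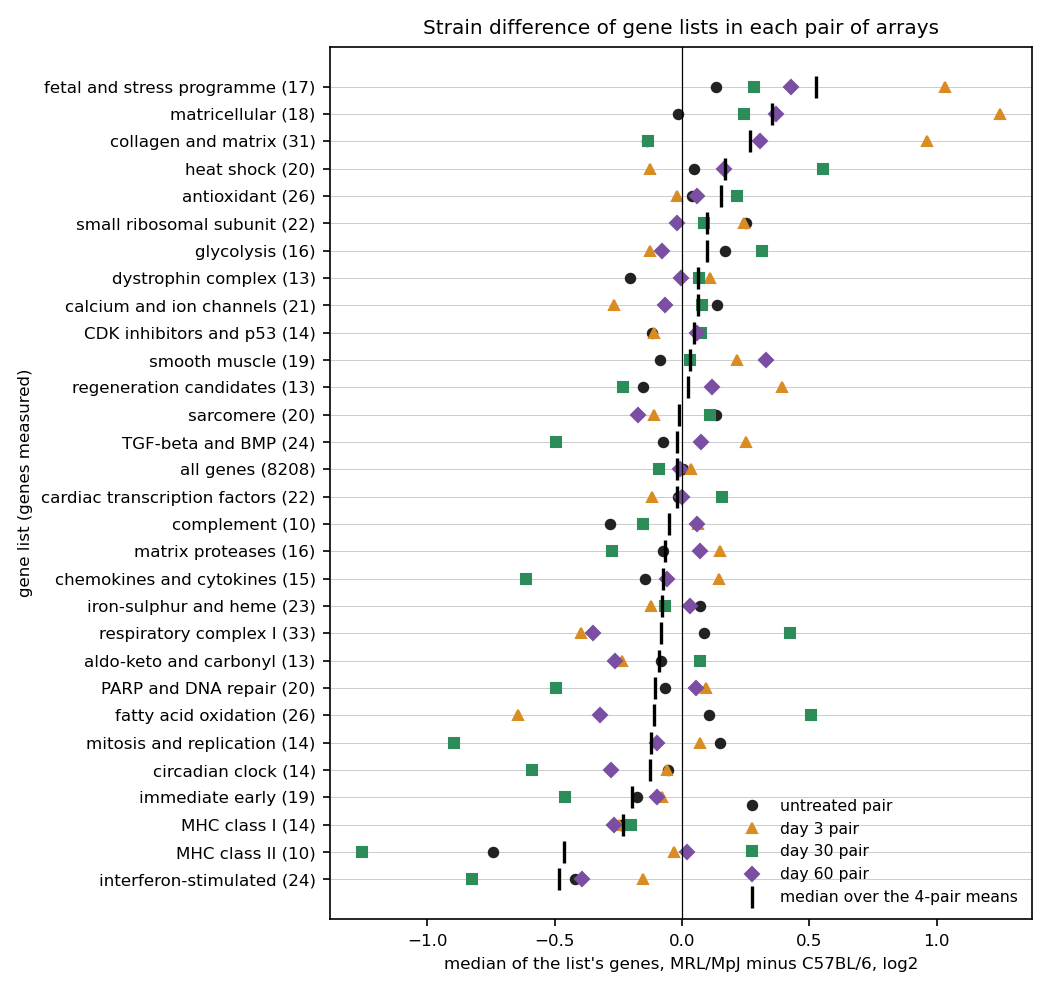
Median strain difference in log2 (horizontal axis) of each gene list with at least 10 measured genes, in each of the 4 pairs of arrays (symbols) and over the means of the 4 pairs (black bar), with all 8208 genes as 1 entry. The interferon-stimulated list lies below 0 in every pair, from -0.83 to -0.15, as do the class I, immediate early and circadian lists. Each of the collagen and matrix, matricellular, and fetal and stress lists lies furthest above 0 at day 3, at 0.96, 1.25 and 1.03.

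No member of a list of regeneration candidates was called. Among its 13 measured genes, which include Cdkn1a and the oxygen sensor gene Egln1, the median was 0.02 (-0.16 without day 3). Cdkn1a encodes the p21 inhibitor of the cell cycle. Its signals were 450, 767, 723 and 310 in C57BL/6 and 402, 385, 420 and 510 in MRL/MpJ, overlapping and not of 1 direction (-0.29, adjusted p = 0.804). Egln1 differed by -0.57 without passing.

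Some regulatory lists had medians below 0, mainly through the day 30 pair. Immediate early genes, which respond to stimuli within minutes, were lower in all 4 pairs in 6 of 19 (31.6%), beside 9.17% of all genes. Their median was -0.19. Nr4a1, a nuclear receptor of this class, had 1248, 1893, 1044 and 1044 against 755, 756, 251 and 882. Its strains did not overlap, and the difference of -1.04 did not pass (adjusted p = 0.315). Circadian clock genes were lower in all 4 pairs in 4 of 14 (28.6%, beside 9.17% of all genes), among them Nr1d1 (-1.03, adjusted p = 0.458) and Per1 (-0.68). Their median was -0.13. Both lists' medians were furthest below 0 at day 30, at -0.46 and -0.59, and without that pair they were -0.03 and 0.016. The labels used here give no hour at which hearts were taken. Of the heat shock genes 15 of 20 were above 0, beside 3830 of all 8208 genes, with a median of 0.17 (0.014 without day 30). Higher in all 4 pairs were 5 (25%), beside 8.53% of all genes.

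Whether the strain difference changed with injury was asked by comparing the 3 ligated pairs with the untreated pair. No probe set passed (0 of 13280, 0%, limma), and 270 had an unadjusted p under 0.05. The untreated side of this test is a single pair of arrays. Of the 5 probe sets with the lowest p, 1 had no symbol and the rest were Crybb2, Tlr9, Pole3 and Tarbp2. Each had 1 sign in the untreated pair and the other in all 3 ligated pairs. Tlr9, a receptor for microbial DNA, had 8.3, 17.3, 200 and 126 in C57BL/6 and 184, 16, 80.1 and 66.2 in MRL/MpJ. Pole3, a DNA polymerase subunit, had 116, 19.7, 31.5 and 38.5 against 50.6, 95.7, 133 and 220. All 5 had an adjusted p of 1.

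Some called genes lie close together on the chromosome. In RefSeq's gene order for GRCm38.p6, 37 of the 38 genes were placed. Within 25 places of each other in the order of protein-coding genes lay 4 pairs, holding 8 genes. Hsd17b11 and Sparcl1, both higher in MRL/MpJ, had 2 genes between them. Gadd45gip1 and Prdx2, both called lower, had 10, and Cyfip2 and Pttg1, both lower, had 17. Pam, higher, and Stk25, lower, had 20. How often called genes lie this close by chance was not tested.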

How the data were processed

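Total RNA of left ventricles was labelled and hybridised to 8 Affymetrix mouse arrays. Each deposited value is a linear signal intensity. MAS5 is the tool that the submitters' processing notes name, and the authors' arrays came scaled as a whole: trimmed means were 247 to 248 and medians 113 to 140. Detection calls and control probe sets were not used here, and the genome build of the probe design is not given in the sources used here. Probe sets were named through the platform's annotation: 20380 have 1 gene symbol, 691 several and 1555 none, and the last 2 kinds are not named.

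Before log2 an offset of 28.6 was added (20th percentile of the table), and probe sets with an intensity of at least 121 (the median) in 2 of 8 arrays were kept. Strain differences were tested with limma 3.58.1 in R 4.3.3 (lmFit, eBayes), time point as block and 3 residual degrees of freedom, with Benjamini-Hochberg adjustment over 13280 probe sets; a further term set the ligated pairs against the untreated pair. The procedure was tested on simulated data. Their noise was independent, of equal spread in all arrays of a probe set, and drawn from limma's own fitted variances. The real pairs differed in spread, so the simulated rates need not hold for the real arrays. In the simulation 26.9% of the 2-fold differences put in were called and 94% of the 4-fold ones, and 9 of 154 calls were false. A difference near 2-fold that did not pass is therefore not shown to be absent. Members, lists and tests were chosen with earlier results of these data known. Full values go to the single-symbol probe sets among the 15 largest called differences in each direction, the 10 probe sets each way with the largest smallest pair difference, up to 4 members of a list with 1 direction in all pairs and members that differ in sign, and the 5 lowest p of the further term. A few further members and probe sets were named after their values were seen. In lists a gene is its probe set of highest mean. Alternatives were other offsets, filters, scalings, variance models, no time block, 1 probe set for each gene, and leaving out each pair. Few arrays limit the precision.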

Additional observations from a re-analysis of the deposited data

Results flagged for a closer look

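In 4 of the 56 called probe sets, 1 pair of arrays lay far from the other 3 by Dixon's criterion, which chance alone meets in about 1 in 20 groups of 4. For 1810058I24Rik the untreated pair differed by 1.45 on the log2 scale, the others by 1.01 to 1.08. For Bdh1 the day 60 pair differed by 0.88, the others by 1.15 to 1.20. For H2-K1 (1451931_x_at) the day 30 pair differed by -4.48, the others by -3.25 to -3.09, and the MRL/MpJ day 30 signal of 21.1 lay under the offset. For Hebp1 the day 60 pair differed by 1.21, the others by 2.45 to 2.70, with the highest C57BL/6 signal of the gene, 63.2, and its lowest MRL/MpJ signal, 183. None of these pairs changed the sign of its gene.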

How the results depend on the processing

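The 56 calls (20 higher, 36 lower) became 15 (3 and 12) with no signal filter, 18 (4 and 14) with 1 probe set for each gene, and 0 (0 and 0) without moderation of the variance. With the 10th percentile as offset, 12 were higher. With each pair left out in turn, the range was 14 to 44 in all, 4 to 10 higher and 10 to 34 lower. Counts stayed within 1.5 times of 56 under the other 7 alternatives, among them quantile normalization (38) and the fit without the time point block (67). For the same direction in all 4 pairs, no filter gave 2008 lower, and 1 probe set for each gene gave 700 higher and 753 lower. The class I list's median was -0.19 after quantile normalization and -0.20 after median centring, and -0.25 to -0.16 with 1 pair left out. With 1 pair left out, the median of the antioxidant list ran from 0.016 to 0.20, of the cell cycle inhibitor list from -0.11 to 0.14, of the atrial markers from -0.25 to 0.55 and of the endothelial markers from -0.057 to 0.031. The 1 array for each strain and time point, and signals near the offset, limit what can be told.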
